A study of Mus musculus with 7 samples.

Results

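Genes for RNA-remodelling proteins were followed in differentiating C2C12 cells depleted of lnc-SMaRT. They are the RNA helicase genes Dhx36, Dhx9, Ddx5, Ddx17, Ddx3x, Eif4a1 and Eif4a2, and Cnbp, which encodes a zinc-finger protein that binds G-rich RNA. Each was found by its symbol among the 11642 rows of the expression table, so that the list holds 8 rows of 11642. The genes were named with earlier results of these data known. All 8 passed the filter on low values, a mean of at least 0.5 RPKM (reads of a gene divided by its exon length and by the library size), which 11086 rows passed.

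C2C12 is a mouse myoblast line that fuses into myotubes in low serum. All 4 sequenced samples came from such cells on day 2 of differentiation and differed by the siRNA they received: 2 had a scramble control (si-SCR 1 and 2) and 2 had siRNA #1 against lnc-SMaRT (si-SMaRT 1 and 2), a long non-coding RNA of muscle cells. Because 1 siRNA against lnc-SMaRT was sequenced, loss of lnc-SMaRT and other effects of that siRNA cannot be told apart. In addition, RNA captured with probe set #1 for lnc-SMaRT and with probes for LacZ was available as lists of peaks, from 1 library each. By the study's account, the replicates were separate populations of cells.

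RNA helicases use ATP to open paired RNA or to strip proteins from it. DEAD-box helicases (Ddx and Eif4a genes) open short duplexes, while DEAH-box helicases (Dhx genes) move along a strand. DHX36 and DHX9 unwind G-quadruplexes, 4-stranded stacks of guanines that can hold back ribosomes in the mRNAs that carry them, and CNBP keeps G-rich mRNA sequences unfolded. EIF4A1, EIF4A2 and DDX3X act on the 5′ end of mRNAs when translation starts. DDX5 and DDX17 are co-regulators of MyoD, the transcription factor that drives myogenesis, and also work with the microRNA processing enzyme Drosha.

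The sequence of siRNA #1 is shown because it defines the treated group. It matched nucleotides 878 to 898 of the 1409-nt lnc-SMaRT transcript (GENCODE M21) without a mismatch.
siRNA #1, sense strand: gagaagcagaacaaacagaua

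The mRNAs of the 8 genes were searched for runs of guanines that could form a G-quadruplex themselves. DHX36, DHX9 and CNBP act on such runs. The pattern was GGG 4 times, separated by 1 to 7 bases of any kind, read on the mRNA strand of the longest protein-coding transcript of GENCODE M21. It was found in 2 of the 8 mRNAs, Eif4a1 and Ddx17, and in 22.6% of 10182 protein-coding genes tested. Both stretches lie in the 3′ UTR, that of Eif4a1 at chr11:69667382-69667405 on the minus strand and that of Ddx17 at chr15:79529661-79529676 on the minus strand of GRCm38. Capitals mark the runs of guanines.
Eif4a1, nucleotides 1305 to 1328 of 1774: GGGGGGaGGGGaGGGagccaaGGG
Ddx17, nucleotides 2792 to 2807 of 4732: GGGaGGGtGGGtaGGG
The mRNAs of Dhx36, Dhx9, Ddx5, Ddx3x, Eif4a2 and Cnbp held no match to this pattern in these transcripts, which says only that these letters are not there.

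The siRNA target was checked next. lnc-SMaRT measured 19.1 and 15.9 RPKM in the controls, against 2.88 and 3.65 RPKM after its siRNA. It fell by 2.39 on the log2 scale (SE 0.28, limma, adjusted p = 0.000882), with both treated samples far below both controls. Fold changes here and below are differences of log2(RPKM + 0.1), tested with limma across all 11086 rows with Benjamini-Hochberg adjustment. Mlx, the basic helix-loop-helix factor mRNA that the study examined as a partner of lnc-SMaRT, measured 25.9, 21.8, 20.2 and 20.1 RPKM in the same order (log2 fold change −0.24, adjusted p = 0.857). The effective library sizes behind the RPKM values ran from 11291255 to 14312935 reads. By the study's read counts, filtering of ribosomal and transfer RNA removed a much larger share of read pairs from si-SMaRT 1 than from any other of these samples. The bearing of this on the values was not tested.

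Markers of muscle and of proliferating myoblasts were read beside the helicases. Of 10 muscle markers, 9 had a negative log2 fold change, while 52.3% of all rows were above 0. With the GC trend described below removed, 8 of 9 were negative. None of the 10 was called in the RPKM as deposited. The lowest adjusted p was that of Tnnt1, a troponin of slow muscle (−1.21, limma, adjusted p = 0.0599). An unadjusted p under 0.05 was reached by 5 of the 10, against 9.09% of all rows. With the GC trend removed, 2 of 9 were called lower, Tnnt1 and Ckm, the muscle creatine kinase, against 5.48% of all genes called in either direction. Their RPKM summed to 11135 and 11573 in si-SCR and to 7924 and 5576 in si-SMaRT 1 and 2. The muscle type itself was plain in every sample, with at least 640 RPKM of Myog, the myogenin gene, and 714 RPKM of Myh3, the embryonic myosin heavy chain. Of 8 markers of proliferating myoblasts, 2 were called higher, against 0.180% of all rows. Id3, an inhibitor of MyoD dimers, had a log2 fold change of 1.60 (limma, adjusted p = 0.0232). For Ccnd1, the cyclin of G1 phase, it was 1.36 (limma, adjusted p = 0.0356). Mki67, Top2a, Ccna2, Ccnb1, Cdk1 and Id1 were not called, with values from −0.011 for Id1 to 0.38 for Ccna2. The summed RPKM of the 8 markers was 157, 137, 167 and 210 in the controls and then the treated samples. Of 8 markers of other cell types only Cd68 and Tubb3 were listed. Cd68 was at about 1 RPKM, and Tubb3 at 20.6 and 18.8 RPKM in si-SCR and 24.1 and 13.6 RPKM in si-SMaRT. Ptprc, Pecam1, Cdh5, Epcam, Cdh1 and Sox10 were not among the rows. The part of these shifts in the helicase values was not tested, and in bulk RNA fewer cells of a type and less RNA per cell cannot be told apart.

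None of the 8 genes passed the test between si-SMaRT and si-SCR (limma, adjusted p under 0.05), against 56 of all 11086 rows, or 0.505%. None had an unadjusted p under 0.05, which 9.09% of the rows had, and voom on the reads worked out from the RPKM values called none either. The log2 fold change was above 0 for 7 of the 8 genes, with Eif4a2 as the exception, and for 52.3% of all rows. The median over the 8 genes was 0.16, against 0.020 over all rows. The groups did not overlap for 2 of the 8, Dhx9 and Ddx17, both higher in si-SMaRT, against 40.7% of all rows in either direction, 20.2% higher and 20.4% lower.

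**Figure D1:**
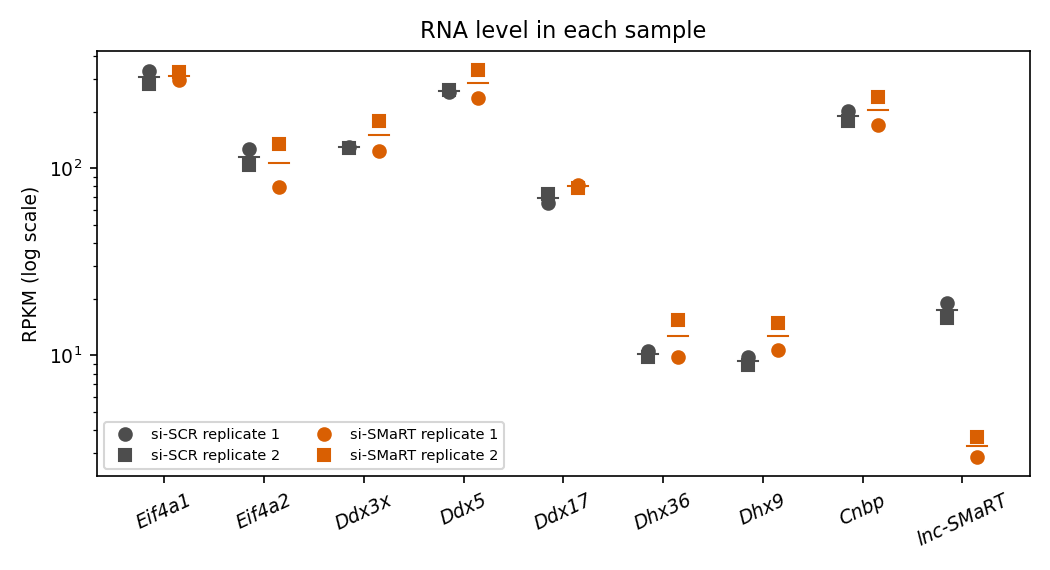
RNA level (RPKM, log axis) of the 7 helicases, Cnbp and lnc-SMaRT in each sample; circles are replicate 1, squares replicate 2, and bars the mean of 2 samples. Only lnc-SMaRT moves far between the groups, from 19.1 and 15.9 to 2.88 and 3.65 RPKM, while si-SMaRT 2 lies above si-SMaRT 1 for every gene drawn but Ddx17.

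The level of the family was considered first. In the control samples, Eif4a1 was the most abundant of 50 DEAD-box and DEAH-box helicases listed, followed by Ddx5, Ddx3x and Eif4a2. Ddx17 ranked 8, behind Ddx1, Dhx15 and Ddx21. Dhx36 and Dhx9 ranked 31 and 36, at a mean of 10.2 ± 0.526 and 9.34 ± 0.636 RPKM (SD, n = 2), against a median of 12.0 RPKM over the 43 other helicases and 6.91 RPKM over all rows. The 7 helicases together held 50.0% and 48.0% of the summed helicase RPKM in si-SCR 1 and 2, and 46.2% and 51.7% in si-SMaRT 1 and 2. Their share was thus close to that of all other members of the family combined in each sample, and the groups overlapped.

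Within the 8 genes, mean RPKM in si-SCR fell in the order Eif4a1, Ddx5, Cnbp, Ddx3x, Eif4a2, Ddx17, Dhx36 and Dhx9. The 2 control samples kept each pair of neighbours apart, but over all 4 samples only Ddx17 and Dhx36 were separated, by 6.78-fold in the control means. RPKM divides by the joined length of all exons of a gene, which for Dhx36 was 10217 bases although its longest protein-coding transcript has 5620. When the reads were divided by that transcript instead, the control means were 18.5 for Dhx36 and 19.4 for Dhx9, so that the order of these neighbours turned. Among the 5 genes whose exon length matched the gene model, Eif4a1 was highest at 749, followed by Ddx5 at 420. Ddx3x, at 145, came out below Cnbp and Eif4a2, for which the length allowed only lower limits of 222 and 233.

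Dhx36 (chr3:62468013-62507004, minus strand) encodes a DEAH-box enzyme that binds and unwinds G-quadruplexes. It measured 10.6 and 9.81 RPKM in the controls, 9.86 in the si-SMaRT 1 sample and 15.5 in si-SMaRT 2, from 1365, 1417, 1137 and 2268 reads. The controls and si-SMaRT 1 were alike and si-SMaRT 2 stood above them, so that the groups overlapped. The log2 fold change was 0.28 (SE 0.29, 95% interval −0.33 to 0.88, adjusted p = 0.846), which leaves room for a change of up to 1.85-fold. Without si-SMaRT 1 it was 0.60 with an adjusted p of 0.0201, in a comparison that called 26.2% of all rows, and without si-SMaRT 2, where 8.49% of rows were called, it was −0.046 (adjusted p = 0.924). Relative to lnc-SMaRT, whose own level fell, the RPKM of Dhx36 was 0.554-fold and 0.619-fold in the controls and 3.43-fold and 4.24-fold in the treated samples.

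Dhx9 (chr1:153455758-153487660, minus strand), a helicase of double-stranded RNA, R-loops and G-quadruplexes, had the largest log2 fold change of the 8 genes. It measured 9.79 and 8.89 RPKM in si-SCR and 10.7 and 14.8 RPKM in si-SMaRT, from 1190, 1207, 1162 and 2041 reads. Both treated samples lay above both controls, si-SMaRT 1 by a small margin. The log2 fold change was 0.43 (SE 0.28, 95% interval −0.15 to 1.02, adjusted p = 0.697). It was 0.66 without si-SMaRT 1 and 0.20 without si-SMaRT 2. With the GC trend described below also removed, these values were 0.33 and 0.31.

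Cnbp (chr6:87842615-87851106, minus strand) showed no such separation. Its RPKM was 202 and 179 in si-SCR and 171 and 239 in si-SMaRT, so that the treated samples were the lowest and the highest of the 4. Its log2 fold change was 0.090 (SE 0.28, 95% interval −0.50 to 0.68, adjusted p = 0.960).

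Eif4a1 (chr11:69666936-69672423, minus strand), the main helicase of the eIF4F cap-binding complex, gave 330 and 283 RPKM in si-SCR and 295 and 328 RPKM in si-SMaRT. Its row also holds Gm24029 and Gm22988, whose reads cannot be told apart from it. The control samples spanned the treated ones, with a log2 fold change of 0.025 (SE 0.27, 95% interval −0.55 to 0.60, adjusted p = 0.988). Eif4a2 (chr16:23107444-23114136, plus strand), its paralog, shares its row with 5 small RNAs that include Snord2 and Snora81. It gave 127 and 104 RPKM in si-SCR and 79.2 and 134 RPKM in si-SMaRT. Here si-SMaRT 1 was the lowest sample and si-SMaRT 2 the highest (log2 fold change −0.16, SE 0.30, 95% interval −0.78 to 0.47, adjusted p = 0.924).

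Ddx3x (chrX:13280970-13294052, plus strand), which assists translation of mRNAs with structured 5′ UTRs, was even across 3 samples. It measured 130.0 and 129 RPKM in si-SCR and 123 and 178 RPKM in si-SMaRT. Only si-SMaRT 2 departed from the rest, and the log2 fold change was 0.20 (SE 0.28, 95% interval −0.39 to 0.78, adjusted p = 0.891).

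Ddx5 (chr11:106780355-106789185, minus strand), the p68 co-activator of MyoD, had the same shape. Its row, which also holds Mir3064 and Gm25994, gave 256 and 262 RPKM in si-SCR and 237 and 334 RPKM in si-SMaRT. Overlapping groups gave a log2 fold change of 0.12 (SE 0.28, 95% interval −0.47 to 0.71, adjusted p = 0.940). Ddx17 (chr15:79527736-79546741, minus strand), the p72 paralog, was the gene in which the treated samples were closest. It gave 65.5 and 72.6 RPKM in si-SCR and 81.3 and 78.5 RPKM in si-SMaRT, with both treated samples above both controls. This made a log2 fold change of 0.21 (SE 0.26, 95% interval −0.34 to 0.76, adjusted p = 0.870).

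**Figure D2:**
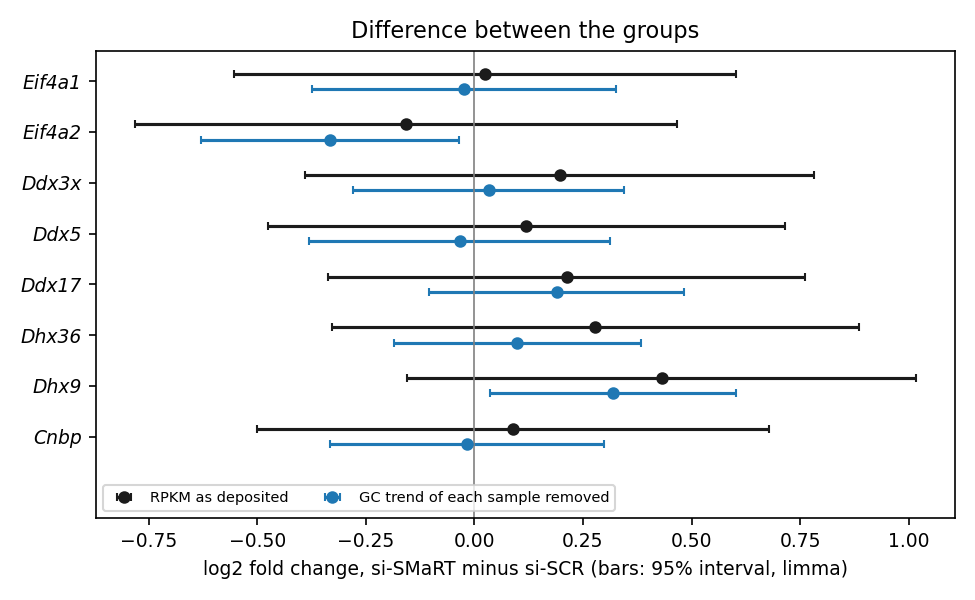
Log2 fold change of each gene, si-SMaRT minus si-SCR, with 95% intervals from limma, for the RPKM as deposited (black) and after the GC trend of each sample was removed (blue). Every black interval crosses 0; the blue intervals of Dhx9 (0.037 to 0.60) and Eif4a2 (−0.63 to −0.036) do not, at adjusted p-values of 0.151 and 0.153.

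The 2 treated samples differed along the base composition of the mRNAs. Across 10566 genes, the log2 difference of si-SMaRT 2 minus si-SMaRT 1 fell with the GC content of the transcript (Spearman's rho −0.86, across genes of the same libraries, which are not independent). Between the control samples the rho was 0.37. Of the 8 genes, 6 had a GC content under 45%, as did 23.7% of all genes. The difference was 0.76 for Eif4a2 (40.2% GC), 0.65 for Dhx36 (40.0%), 0.53 for Ddx3x (41.0%), 0.50 for Ddx5 (41.6%), 0.47 for Dhx9 (44.6%) and 0.48 for Cnbp (44.9%). The median over all genes under 45% GC was 0.56. The other members had more GC and smaller differences, 0.15 for Eif4a1 (48.1%) and −0.051 for Ddx17 (49.7%), beside a median of 0.17 for genes of 45% to 50%. In narrower bins of GC content, Eif4a2 lay just above and Ddx5 just below the interquartile range of all genes in their bin (0.51 to 0.74, centred at 41% GC). The other members lay within the interquartile range of their bins.

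**Figure D3:**
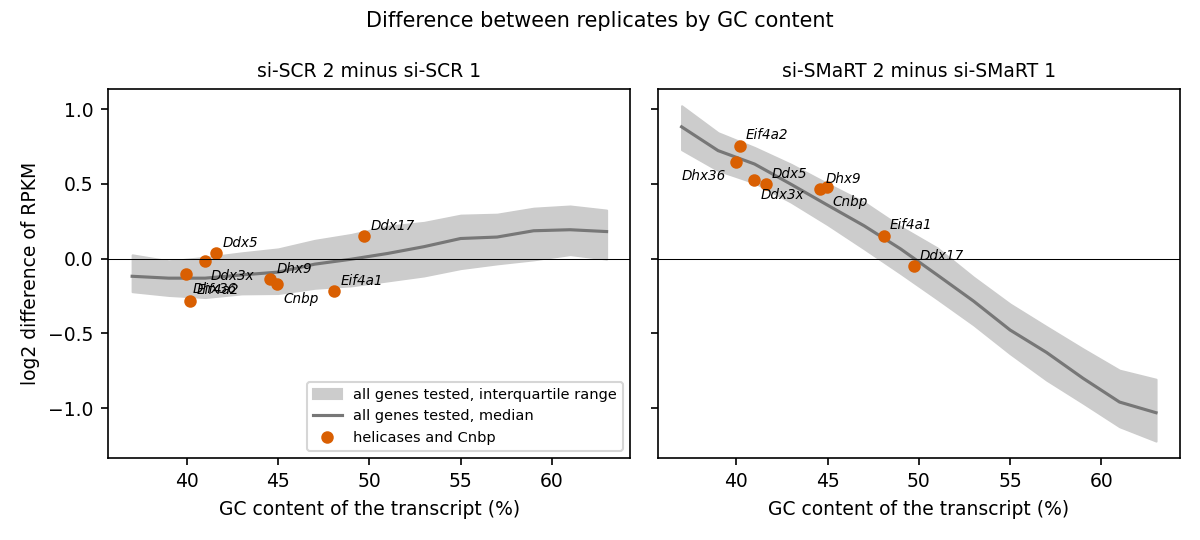
Log2 difference of RPKM between replicates against the GC content of the transcript (%), in si-SCR (left) and si-SMaRT (right); the line is the median and the band the interquartile range of all genes tested, and points are the helicases and Cnbp. On the right the points descend with the line, from 0.76 for Eif4a2 to −0.051 for Ddx17.

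The GC trend of each sample was then removed by a loess fit. The difference of si-SMaRT 2 minus si-SMaRT 1 became −0.089 for Dhx36, 0.025 for Dhx9, 0.033 for Eif4a2, 0.066 for Cnbp, −0.017 for Eif4a1, −0.14 for Ddx5 and −0.15 for Ddx3x, in each case smaller in size than before. It became larger in size for Ddx17, at −0.10, and between the controls it also grew for Ddx5 (from 0.036 to 0.17), Ddx3x (from −0.017 to 0.12) and Ddx17 (from 0.15 to 0.16). Fold changes above 0 were left for 4 genes and below 0 for 4, with a median of 0.0085, beside −0.0025 over all genes. Dhx9 was higher in si-SMaRT (log2 fold change 0.32, SE 0.12, unadjusted p = 0.0310) and Eif4a2 lower (−0.33, SE 0.13, unadjusted p = 0.0319). Neither passed the adjustment over all genes (limma, adjusted p = 0.151 and 0.153), and an unadjusted p under 0.05 was reached by 26.0% of genes in this comparison. Again 0 of the 8 were called, against 5.48% of all genes. The groups did not overlap for 4 of the 8, Dhx9, Ddx17 and Dhx36 on the higher side and Eif4a2 on the lower, against 58.1% of all genes, 28.1% higher and 30.0% lower. For Dhx36 the log2 fold change was 0.10 (SE 0.13, 95% interval −0.19 to 0.38, limma, adjusted p = 0.646). Its upper bound was 1.31-fold, against 1.85-fold in the RPKM as deposited. The remaining values were 0.19 for Ddx17, 0.033 for Ddx3x, −0.034 for Ddx5, −0.024 for Eif4a1 and −0.016 for Cnbp. The trend was fitted without regard to group, so any group difference that ran with GC content was removed too. The narrower intervals take the fitted trend as known.

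Ratios within a sample do not depend on how the libraries were scaled, and were used for pairs with related functions. The ratio of Eif4a1 to Eif4a2 RPKM was 2.60 and 2.72 in si-SCR and 3.72 and 2.45 in si-SMaRT, with overlapping groups (difference of mean log2 ratios 0.18, two-sided exact permutation p = 1.0, n = 2 per group). Without si-SMaRT 1 this difference was −0.12. After removal of the GC trend the log2 ratios were 1.37 and 1.33 in si-SCR and 1.68 and 1.63 in si-SMaRT, without overlap of the groups. In that setting the groups did not overlap for 58.1% of all genes, and the share of gene pairs was not worked out. The ratio of Ddx5 to Ddx17 was 3.90, 3.61, 2.91 and 4.26 in the 4 samples (difference −0.093, exact permutation p = 1.0, n = 2 per group). The same correction gave log2 ratios of 1.97 and 1.98 in the controls and 1.77 and 1.73 in the treated samples, again without overlap. The corrected ratios were not tested.

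The log2 ratio of Dhx36 to Dhx9 was 0.11 and 0.14 in the controls and −0.12 and 0.063 in the treated samples, lower in both of them. The difference of mean log2 ratios was −0.15 (two-sided exact permutation p = 0.333, n = 2 per group), and −0.22 with the GC trend removed. For 2 samples against 2, 0.333 is the smallest p that this test can give. A ratio compares unequal changes and does not tell which gene of the pair moved.

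**Figure D4:**
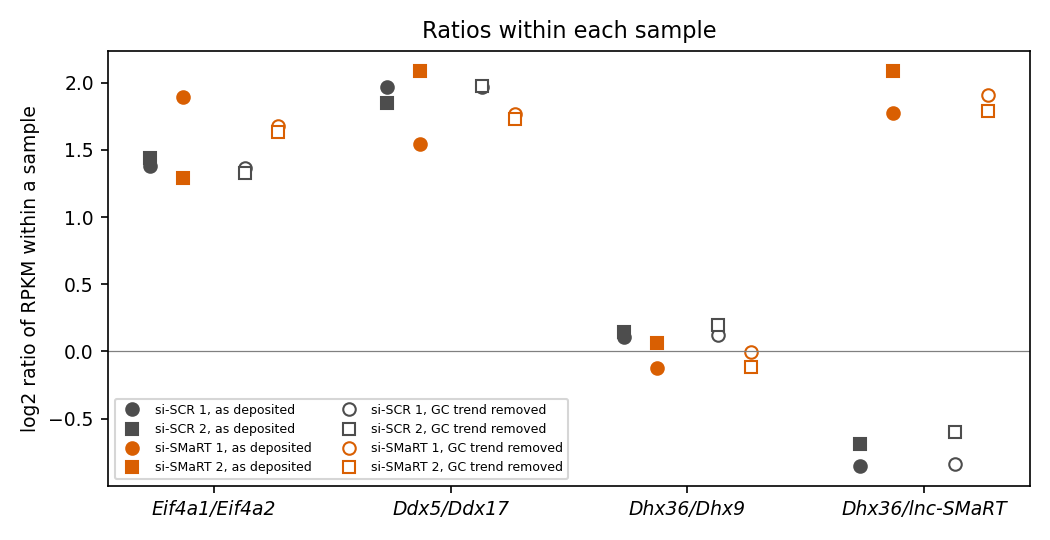
Log2 ratio of RPKM within each sample for 4 pairs, as deposited (filled) and with the GC trend removed (open), si-SCR in grey and si-SMaRT in orange. For Eif4a1 to Eif4a2 the open points lie at 1.37 and 1.33 in the controls and at 1.68 and 1.63 in the treated samples; for Dhx36 to Dhx9 the control points lie farther apart when open (0.12 and 0.20) than when filled (0.11 and 0.14).

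The rest of the family was read beside the 7 helicases. Of 51 other DEAD-box and DEAH-box helicases, 43 were in the table and none was called (limma, 0 at an unadjusted p under 0.05), nor did voom call a gene of this list or of the 3 that follow. Their log2 fold changes were positive for 26 and negative for 17, with a median of 0.073. The values ran from −0.52 for Ddx49 and −0.36 for Ddx23, a helicase of the spliceosome, to 0.36 for Ddx6, which represses and decays mRNA, and 0.38 for Dhx33. Dhx9, at 0.43, exceeded all 43 in the RPKM as deposited, but with the GC trend removed its 0.32 lay below Dhx33 (0.35) and Dhx37 (0.43), the latter named after its value was seen. Groups did not overlap for 8 genes on the higher and 7 on the lower side, against 20.2% and 20.4% of all rows. Without si-SMaRT 1, 6 of the 43 were called, and without si-SMaRT 2, 1 was, against 26.2% and 8.49% of all rows.

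**Figure D5:**
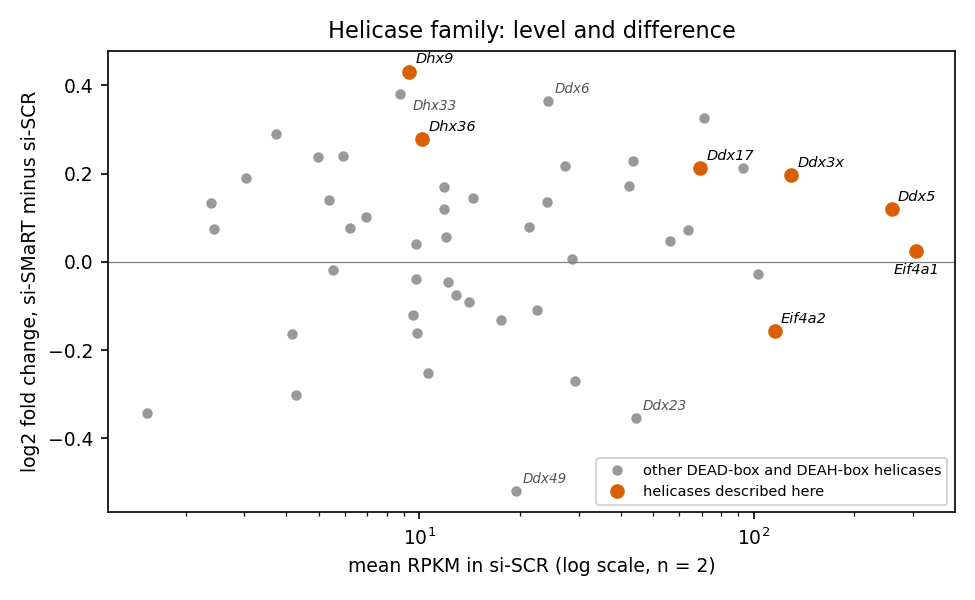
Mean RPKM in si-SCR (log axis, n = 2) against the log2 fold change of si-SMaRT minus si-SCR for 50 helicases; orange points are those described here. They include the 4 highest levels, up to 306 RPKM for Eif4a1, while Dhx36 and Dhx9 stand at 10.2 and 9.34 RPKM, and they lie between −0.16 and 0.43 on the vertical axis.

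Other RNA G-quadruplex binding proteins formed the next list. All 17 were in the table and none was called (limma, 1 at an unadjusted p under 0.05). The log2 fold change was above 0 for 15 of them, with a median of 0.17, and for 13 with the GC trend removed. Fmr1, the fragile X protein, had the largest value. Its row, joined with Gm27838, gave 8.05 and 8.56 RPKM in si-SCR and 10.2 and 16.8 RPKM in si-SMaRT (0.65, adjusted p = 0.502). Its paralog Fxr1, a muscle-enriched RNA-binding protein, had the lowest (−0.28, adjusted p = 0.843), with 182, 163, 116 and 174 RPKM. Fxr2, a further paralog, gave −0.15 and turned to 0.0050 with the GC trend removed. Without si-SMaRT 1, 4 of the 17 were called, against 26.2% of all rows.

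Of the 14 genes of the eIF4F complex and its regulators, the partners of Eif4a1 and Eif4a2, none was called (limma, 2 at an unadjusted p under 0.05), with 12 above 0 and a median of 0.22. Pabpc1, the poly(A)-binding protein, measured 34.5 and 35.0 RPKM in si-SCR and 53.2 and 60.9 RPKM in si-SMaRT, with both treated samples above both controls (0.71, SE 0.26, adjusted p = 0.342). It was the one gene of this list called by limma when the GC trend was removed (0.66, SE 0.12, adjusted p = 0.0210), against 5.48% of all genes. Eif4ebp1, the inhibitor of the cap-binding protein, went the other way with 147, 125, 99.1 and 84.2 RPKM (−0.57, adjusted p = 0.543). Eif4e3 gave 0.56 on a row joined with Foxp1, and Eif4b, a cofactor of eIF4A, −0.060. Without si-SMaRT 1, 4 of the 14 were called, and without si-SMaRT 2, 1 was, against 26.2% and 8.49% of all rows.

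Of 13 genes for MyoD and partners of Ddx5 and Ddx17, 12 were listed and none was called (limma, 1 at an unadjusted p under 0.05), with 8 above and 4 below 0 and a median of 0.22. Mef2c, a muscle transcription factor that acts with MyoD, measured 4.99 and 5.20 RPKM in si-SCR and 2.63 and 3.36 RPKM in si-SMaRT (−0.76, SE 0.29, adjusted p = 0.359). It passed the limma test once the GC trend was removed (−0.92, SE 0.17, adjusted p = 0.0226), as did 5.48% of all genes. Myog gave −0.47 (adjusted p = 0.696). On the other side stood Ep300, an acetyltransferase that MyoD recruits, at 0.48 (adjusted p = 0.667) and Drosha at 0.44 (adjusted p = 0.668). Myod1 itself was 54.8 and 70.1 RPKM in si-SCR and 95.9 and 57.7 RPKM in si-SMaRT, with overlapping groups (0.26, adjusted p = 0.857). Without si-SMaRT 2, 3 of the 12 were called, and without si-SMaRT 1, 1 was, against 8.49% and 26.2% of all rows.

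The rows most like Dhx36 over the 4 samples were sought among all rows tested, by the Euclidean distance of their log2 values after centring each on its mean. They were Homer1 (distance 0.0176), the joined row of Mmgt1 and Mir5116 (0.0195) and Pls3 (0.0198), which also stood high in si-SMaRT 2 alone. Their GC contents were 36.9%, 40.6% and 43.7%. Among the 8 genes the nearest to Dhx36 was Ddx3x (distance 0.134, rank 255), followed by Dhx9 (0.201) and Ddx5 (0.215). Likeness over 4 samples is a description of these libraries.

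The pull-down lists held 345 peaks for lnc-SMaRT probes and 336 for LacZ probes. None of the 8 genes had an exon under a peak of either list, on its own strand with an overlap of at least 1 base. lnc-SMaRT itself carried 4 peaks and Mlx 2 in the lnc-SMaRT list, and neither had one in the LacZ list. No gene of the other helicases, the G-quadruplex binding proteins, the eIF4F list or the MyoD list had a peak in either list. The share of all rows with a peak was not worked out, so the absence of peaks is not read as a trait of these genes. With 1 library each and no coverage values used here, a low level of captured RNA from the helicase genes was not detectable from these lists.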

How the data were processed

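Total RNA (Ribo-Zero libraries) of 4 siRNA-treated samples and 3 pull-down samples was sequenced. Per the labels and the study's methods, the authors trimmed reads with Trimmomatic, aligned them to GRCm38 with TopHat2, counted them per gene with HTSeq and deposited RPKM values from edgeR after TMM scaling and a filter on low counts. The authors called peaks with Piranha in bins of 200 bases and deposited a p-value for each. By the study's methods the input was the covariate for LacZ peaks; for lnc-SMaRT, peaks were called both with the input and against LacZ, and the deposited list does not state which it holds.

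The groups were compared in R 4.3.3 by limma 3.58.1, with lmFit and a trended eBayes prior, after adding 0.1 to each RPKM and taking log2. Rows averaging 0.5 RPKM or more were tested, p-values were adjusted over all of them by Benjamini-Hochberg, and the threshold was 0.05. The pseudocount understates changes of low genes. Reads behind the RPKM were worked out from the value steps; GENCODE M21 exon lengths fixed them for 6001 of 11642 rows, 5 of the 8 genes included, and others are lower limits. GC content was that of the longest protein-coding M21 transcript, and the trend was removed by loess (span 0.3). Overlapping genes share rows (576 of them). Tables and plots used matplotlib 3.10.9, scipy 1.17.1, pandas 2.3.3 and numpy 2.4.6 under Python 3.11.15. The fit was tested on simulated data without a GC trend, which cannot show how it performs under the GC trend seen here.

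The 8 genes and all gene lists were chosen with earlier results of these data known. Named genes were the 8, lnc-SMaRT, Mlx, called list genes, the 2 highest and 2 lowest log2 fold changes of each list, marker genes and the 3 rows nearest Dhx36. A value chosen by this rule is withheld and not reported here. Alternatives were other pseudocounts, filters, scalings, blocks, voom and each sample left out.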

Additional observations from a re-analysis of the deposited data

How the results depend on the processing

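The count of called rows, 56, was 37 with quantile normalization, 103 with voom on reads, 579 with the GC trend removed and 24 to 2908 with 1 sample left out. With the GC trend removed and si-SMaRT 1 or 2 left out it was 1227 or 1154. None of the 8 genes was called under any alternative except without si-SMaRT 1, where 2 were, so that the range was 0 to 2 with 1 sample left out. The corresponding ranges were 0 to 6 for the other helicases, 0 to 4 for the G-quadruplex binding proteins, 0 to 4 for the eIF4F list and 0 to 3 for the MyoD list. With the GC trend removed, 1 gene of the eIF4F list and 1 of the MyoD list were called, against 5.48% of all genes. The causes were not tested.

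Fold changes near 0 turned sign. With the GC trend removed, with or without the block, they were −0.034 for Ddx5, −0.024 for Eif4a1 and −0.016 for Cnbp. With 1 sample left out, they ranged from −0.046 to 0.60 for Dhx36, −0.13 to 0.37 for Ddx5, −0.067 to 0.46 for Ddx3x, −0.084 to 0.13 for Eif4a1, −0.54 to 0.22 for Eif4a2 and −0.15 to 0.33 for Cnbp. With the GC trend removed and si-SMaRT 1 left out, Ddx5 gave −0.10, Ddx3x −0.040 and Eif4a1 −0.033, and with si-SMaRT 2 left out Eif4a1 gave −0.015 and Cnbp −0.049. Dhx9 and Ddx17 kept a positive sign under every alternative run, from 0.20 to 0.66 and from 0.14 to 0.30. The difference of the log2 ratio of Ddx5 to Ddx17 was 0.0082 with quantile normalization. With 1 sample left out, it ranged from −0.37 to 0.18, and that of Eif4a1 to Eif4a2 from −0.12 to 0.48.

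Across genes, the difference of replicate 2 minus 1 in si-SCR and that in si-SMaRT had r = −0.36. Both differences ran with GC content, in opposite directions (Spearman's rho 0.37 and −0.86). This r therefore cannot tell whether samples of 1 number were pairs. The main fit took no pairing, and a replicate block was run as an alternative. The replicate block called 96 rows, and 704 with the GC trend removed, of which 2 were in the eIF4F list and 1 in the MyoD list; it called none of the 8 genes. The crossed pairing, chosen after seeing the data, called 487 rows and 0 of the 8 genes. The removal of the GC trend with a sample left out and the levels per transcript length were also chosen after seeing the data. With a sample left out, the lone sample was assumed to vary like the other group. With 2 samples a group the intervals were wide, and a change of any size within an interval remains possible for that gene. A gene that was not called can therefore still have changed.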
